A study of Mus musculus with 24 samples.

Results

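The comparison set colon tumours of the AOM-DSS mouse model against colon tumours of the APC mouse model, using 11 of the 24 libraries of the study. Members were chosen by label alone: the 6 raw count columns named as AOM-DSS cancers and the 5 named as APC cancers, with all mouse miRNA probes and without the normal mucosa. The study measured mature miRNAs in tumours and in normal colon mucosa of both models with NanoString nCounter, an assay in which barcoded probes bound to single miRNA molecules are counted without amplification.

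The APC tumours carry the genotype label APC, and the series' design text names the mice APC;CpC. In that model a Cre recombinase under the CDX2 promoter, which is active in the epithelium of the distal gut, deletes a floxed copy of the tumour suppressor Apc, a negative regulator of Wnt signalling, and the labels name no carcinogen for these mice. The AOM-DSS tumours come from mice given azoxymethane (AOM), a colon carcinogen, and dextran sulphate sodium (DSS), which injures the mucosa and causes colitis, and these mice carry no engineered Apc allele in the labels. The labels give no strain, age or dose, nor the interval to tumour collection. The extraction protocol speaks of formalin-fixed tissue and the design text of frozen tissue, and the labels do not settle which was used. Nothing states that every library came from a separate mouse, so p-values measure the spread between these samples. All APC tumours ran on cartridge 1, AOM-DSS tumours 1 and 2 on cartridge 2 and AOM-DSS tumours 3 to 6 on cartridge 3, so model and cartridge cannot be told apart in this comparison. In these bulk samples, fewer cells of a type and less RNA per cell cannot be told apart either.

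MicroRNAs are short RNAs that guide Argonaute proteins to messenger RNAs that pair with their seed, bases 2 to 8 of the mature strand, and lower the output of those messengers. Several are restricted to a cell type, so that a tumour's miRNA profile reflects both its epithelium and the stroma and blood cells within it. In colon, miR-192 and miR-194 are abundant in differentiated epithelium, whereas miR-31 and miR-135b are widely reported as raised in colorectal cancer, and miR-135 was shown in human cells to target APC messenger RNA.

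The mature sequences below, from RefSeq (GRCm38.p6), are those of the miRNAs on which the results turn, with the seed in capitals. The pair of higher miRNAs whose genes lie side by side on chromosome 19 comes first, with miR-451 after it.
miR-192: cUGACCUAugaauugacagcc
miR-194: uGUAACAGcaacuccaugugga
miR-451: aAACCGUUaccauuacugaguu
The next set holds miRNAs with large falls, printed to show that their seeds are all different.
miR-31: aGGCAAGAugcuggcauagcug
miR-205: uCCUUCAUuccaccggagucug
miR-9: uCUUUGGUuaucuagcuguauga
miR-708: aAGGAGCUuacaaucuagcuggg
miR-135a: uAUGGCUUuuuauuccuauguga
The third set is the miR-99 family, whose members share a seed and were called lower for miR-100 and miR-99b.
miR-99a: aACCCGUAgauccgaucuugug
miR-100: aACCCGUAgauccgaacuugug
miR-99b: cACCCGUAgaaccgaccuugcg
The last set pairs near-identical miRNAs of the Hox gene clusters, shown because miR-196a and miR-196b were called in opposite directions.
miR-196a: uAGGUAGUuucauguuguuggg
miR-196b: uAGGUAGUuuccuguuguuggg
miR-10a: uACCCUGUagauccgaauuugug
miR-10b: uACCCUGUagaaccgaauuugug
Counting from the 5′ end, miR-196a and miR-196b differ by A12C, miR-10a and miR-10b by U12A, miR-99a and miR-100 by U16A, and miR-100 and miR-99b by A1C, U11A, A16C and U21C. MiR-135b, miR-150, miR-30d and miR-140 are named here without a sequence.

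Levels are given as CPM, each probe's count scaled to a common library total of mouse miRNA counts after TMM adjustment. The tumour libraries held 134680 to 262394 mouse miRNA counts in the APC group and 166360 to 218973 in the AOM-DSS group. A level was called above background where it exceeded the mean plus 2 SD of the 33 probes for viral miRNAs in that library, which lay at 209 to 318 CPM in APC tumours and at 172 to 291 CPM in AOM-DSS tumours. By that measure 125 to 188 miRNAs were above background per APC tumour and 148 to 206 per AOM-DSS tumour. APC tumour 1 stood apart from the other APC tumours: it had the lowest total, and its let-7a, let-7c, miR-30b, miR-195 and miR-203 lay below the range of the others. Calls lost without it are given beside their values, and those gained without it are described together.

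Of the 551 miRNAs that passed the filter on low counts, 36 (6.53%) differed between the tumours of the models at an adjusted p under 0.05 in edgeR's quasi-likelihood test, and 96 passed at an unadjusted p under 0.05. In AOM-DSS tumours 17 (3.09%) were higher and 19 (3.45%) were lower. The fitted change exceeded 2-fold for 4 of the higher and 6 of the lower miRNAs, and the median log2 change over all tested miRNAs was 0.05. The libraries of the groups did not overlap in CPM for 24 of the tested miRNAs (4.36%), 18 of which were called, 10 higher and 8 lower. Without APC tumour 1 there were 55 calls among 555 tested, 33 of them among the 36, with 24 higher (4.32%) and 31 lower (5.59%). The groups then did not overlap for 44 of the 551 miRNAs (7.99%), among them 25 of the 36. Among the 113 miRNAs above background in all 11 tumours 24 were called, 9 higher and 15 lower, and among the 285 at background in all 11 only miR-379 and miR-376c were called.

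**Figure D1:**
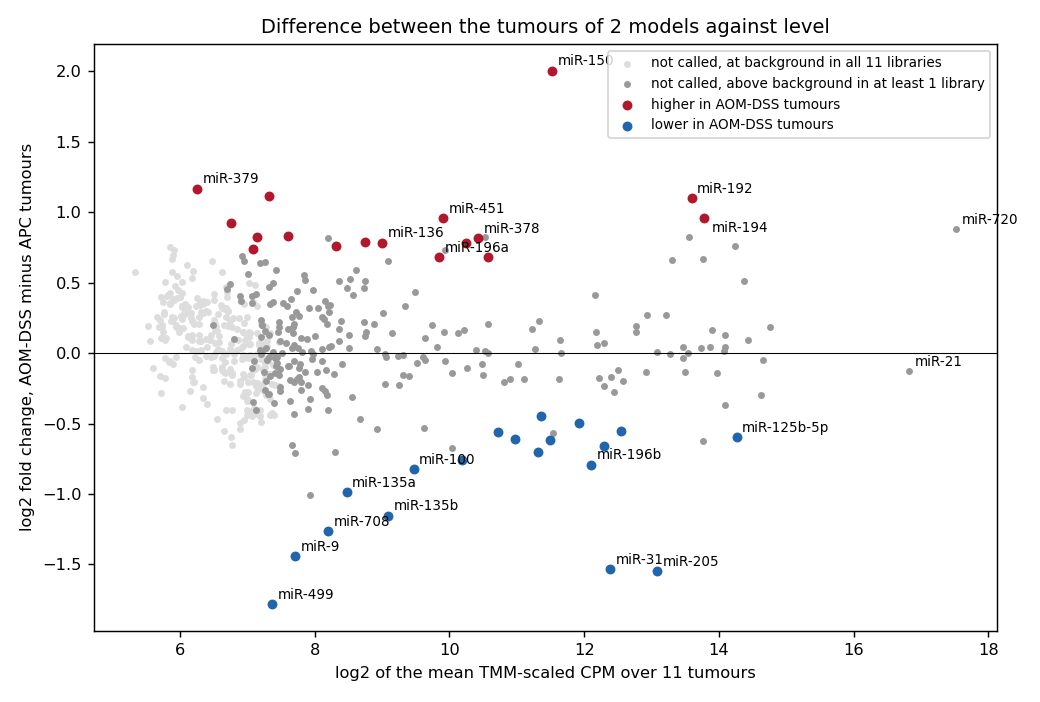
Log2 fold change of AOM-DSS minus APC tumours (vertical axis) against the log2 of the mean TMM-scaled CPM over the 11 tumours (horizontal axis), 1 point per tested miRNA. The 17 higher calls are red and the 19 lower calls blue; miR-150 is the highest point and miR-499 the lowest, and miR-21 and miR-720, the most abundant probes labelled, were not called.

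MiR-192 and miR-194, markers of intestinal epithelium, were higher in AOM-DSS tumours, making 2 of the 3 measured markers called, against 3.09% called higher of all tested miRNAs. All 3 were above background in all 11 tumours, and among the 113 miRNAs at that level 9 were called higher. MiR-192 stood at 7368, 5717, 6184, 7008 and 11846 CPM in APC tumours 1 to 5, and at 13897 to 19546 CPM in AOM-DSS tumours, with a median of 15685. The lowest AOM-DSS tumour lay above the highest APC tumour, and APC tumour 5 was the highest of its group. The log2 fold change was 1.10 ± 0.17 (SE, 5 against 6 libraries), with an adjusted p of 0.000772.

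MiR-194, which shares the chromosome 19 locus with miR-192 and has a further copy on chromosome 1, stood at 8966, 8546, 8137, 7994 and 12915 CPM in the APC tumours. Its AOM-DSS levels ran from 15742 to 20303 CPM, with a median of 18215. These groups did not overlap either, again with APC tumour 5 nearest to the AOM-DSS tumours. AOM-DSS tumours were higher by a log2 fold change of 0.96 ± 0.14, with an adjusted p of 0.000351. The mature strands of Mir194-2 and Mir192 lie side by side, at chr19:6264658-6264679 and chr19:6264857-6264877 on the plus strand of GRCm38.p6. The same direction and call held for both miRNAs in each of the 11 fits that left out 1 tumour.

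MiR-375, the third measured epithelial marker, which is made in goblet and enteroendocrine cells, had levels of 1797, 680, 536, 768 and 1464 CPM in APC tumours and of 1243 to 2535 CPM in AOM-DSS tumours. The groups overlapped and its log2 fold change of 0.82 ± 0.31 was not called (adjusted p = 0.163). The sum of the 3 markers ran from 14857 to 26226 CPM in APC tumours and from 32254 to 41820 CPM in AOM-DSS tumours. The miR-200 family, a general marker of epithelial cells, had 0 of 5 members called and summed to 65902 to 74046 CPM against 64902 to 80881 CPM. Its summed ranges overlapped almost wholly. The summed ranges of the intestinal markers did not overlap, and those sums consist mostly of miR-192 and miR-194.

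MiR-378, encoded within the metabolic coactivator gene Ppargc1b, was also higher. Its levels were 1359, 676, 724, 656 and 1464 CPM in APC tumours and 1324 to 1951 CPM, with a median of 1772, in AOM-DSS tumours. APC tumours 1 and 5 lay within the AOM-DSS range and the other 3 far below it. The log2 fold change of 0.82 ± 0.21 (adjusted p = 0.0255) kept its call in 3 of the 11 fits that left out a tumour, and it was 0.97 without APC tumour 1. MiR-192, miR-194 and miR-378 were the called members of the list of miRNAs reported as lowered in colorectal tumours, 3 higher and 0 lower of 16, with a median log2 change of 0.49, against 3.09% higher and 3.45% lower of all tested miRNAs. Of the 16, 10 were above background in all 11 tumours, and among the 113 miRNAs at that level 9 were called higher and 15 lower. Without APC tumour 1 the list had 5 higher and 2 lower, the latter being miR-195 and miR-497, against 4.32% and 5.59% of all. Scaled to the 4 mRNA probes described further on, it had 1 higher (miR-192) and 2 lower (miR-195 and miR-497), with a median of 0.05. Of all tested miRNAs, 0.363% were higher and 10.5% lower under that scaling.

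**Figure D2:**
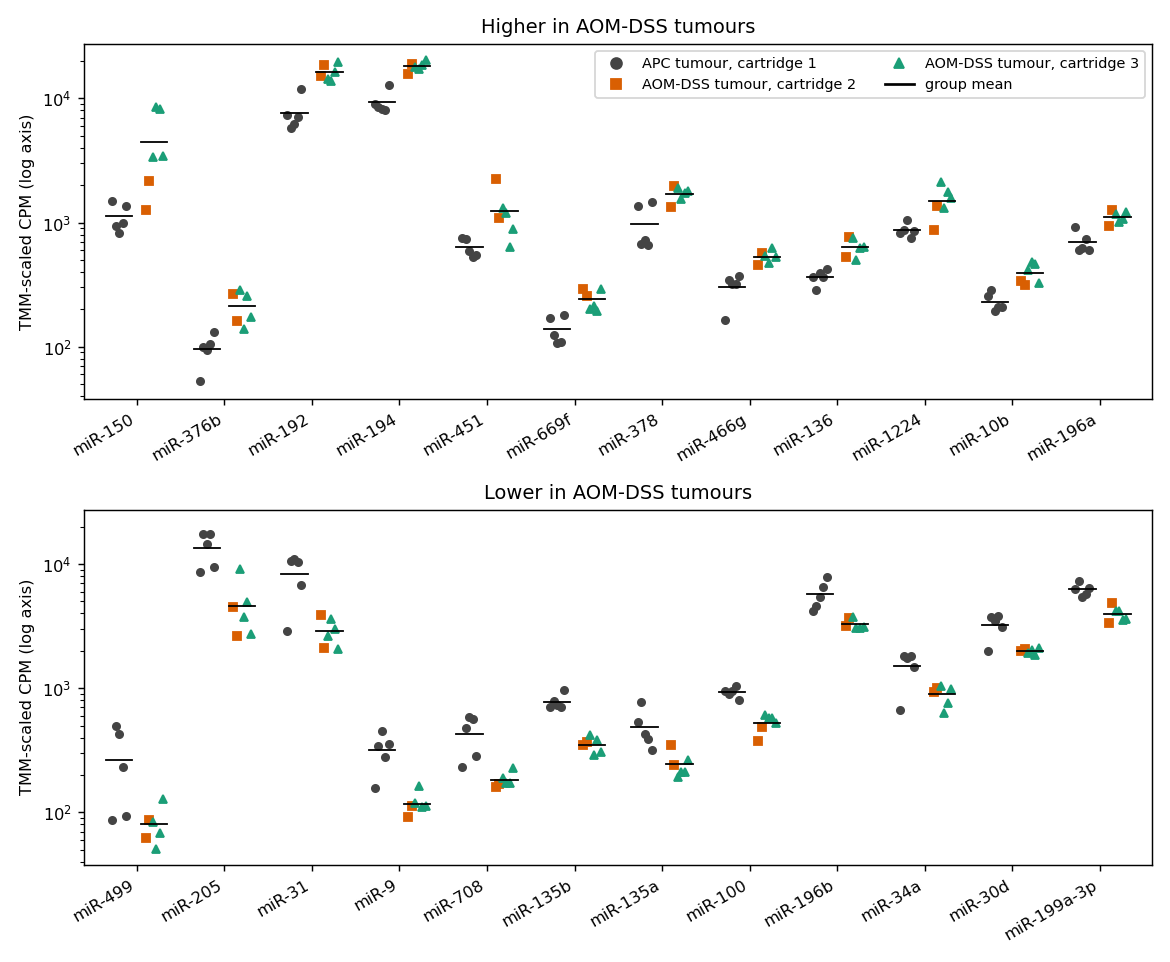
TMM-scaled CPM (log axis) of the 12 miRNAs with the largest called rises (top) and the 12 with the largest called falls (bottom) whose median raw count in the higher group exceeded background. Each point is a tumour library, with the symbol giving its cartridge and the bar the group mean; for miR-192, miR-194 and miR-135b no APC tumour lies within the AOM-DSS range.

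MiR-150, a miRNA of mature lymphocytes that restrains the transcription factor Myb, stood at 1482, 936, 831, 997 and 1362 CPM in APC tumours. In AOM-DSS tumours it ran from 1272 to 8499 CPM, with a median of 3382. Both AOM-DSS tumours of cartridge 2, at 1272 and 2156 CPM, lay below the 4 of cartridge 3, and the groups overlapped through the lowest of them. Its log2 fold change, the largest rise among the tested miRNAs, was 2.00 ± 0.44, with an adjusted p of 0.0118. It was 0.61 with the AOM-DSS tumours of cartridge 2 alone and 2.37 with those of cartridge 3 alone, and without APC tumour 1 it was 2.12 with an adjusted p of 0.0584. Leaving out APC tumour 2 instead gave 1.94 with an adjusted p of 0.0539.

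The other leukocyte markers did not pass. MiR-142-3p, which is made in all blood cell lineages, had 10524, 9036, 9263, 8918 and 14594 CPM against 10944 to 25160 CPM (log2 fold change 0.67 ± 0.21, adjusted p = 0.0799). MiR-223, a myeloid miRNA, had a log2 fold change of 0.22 ± 0.25 and miR-155, induced in activated lymphocytes and macrophages, one of -0.02 ± 0.19. In all, 1 of 7 leukocyte markers was called, with a median log2 change of 0.22, and their sum ran from 19226 to 28066 CPM in APC tumours and from 22064 to 42882 CPM in AOM-DSS tumours. Their part in the other differences was not tested.

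MiR-451, an erythroid miRNA cleaved by Argonaute 2 in place of Dicer, stood at 753, 742, 586, 528 and 552 CPM in APC tumours and at 639 to 2242 CPM, with a median of 1147, in AOM-DSS tumours. Only the lowest AOM-DSS tumour fell within the APC range. Its rise was 0.96 ± 0.24 on the log2 scale (adjusted p = 0.0208), and without APC tumour 1 it was 1.02 with an adjusted p of 0.0848. The call was kept in 5 of the 11 fits that left out a tumour. Its cluster neighbour miR-144 was not called at 0.51 ± 0.27, nor was miR-486 at 0.49 ± 0.26, which was above background in 1 AOM-DSS tumour. Without APC tumour 1 none of the 3 erythroid markers was called.

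The miRNAs lower in AOM-DSS tumours included several that are reported as raised in colorectal cancer. MiR-31 stood at 2870, 10648, 10911, 10326 and 6838 CPM in APC tumours and at 2084 to 3857 CPM, with a median of 2813, in AOM-DSS tumours. APC tumour 1 lay inside the AOM-DSS range, and the other 4 APC tumours lay above it. Its log2 fold change was -1.53 ± 0.30 (adjusted p = 0.00693), and -1.75 with an adjusted p of 4.61e-05 without APC tumour 1.

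MiR-135b had 712, 786, 730, 710 and 966 CPM in APC tumours and 292 to 417 CPM, with a median of 357, in AOM-DSS tumours. The groups were apart by a wide margin and APC tumour 5 was highest. The log2 fold change of -1.15 ± 0.15 had the smallest adjusted p of the comparison, 0.00028. MiR-135a, which shares its seed family, had 537, 768, 429, 388 and 317 CPM against 194 to 348 CPM with a median of 228, and 3 of the 6 AOM-DSS tumours were above background. The groups overlapped at APC tumour 5 and AOM-DSS tumour 1, and the log2 fold change was -0.99 ± 0.22 (adjusted p = 0.00928).

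MiR-34a, a direct target of p53, had 665, 1802, 1745, 1820 and 1484 CPM in APC tumours against 626 to 1035 CPM in AOM-DSS tumours, with a median of 954. As for miR-31, APC tumour 1 alone lay in the AOM-DSS range. The log2 fold change was -0.76 ± 0.22 (adjusted p = 0.0391), and -0.95 with an adjusted p of 1.48e-05 without APC tumour 1. The call was kept in only 2 of the 11 fits that left out a tumour, with an adjusted p of up to 0.117 in the others. These 3, miR-31, miR-135b and miR-34a, were the called members among 23 miRNAs reported as raised in colorectal tumours, 0 higher and 3 lower, with a median log2 change of -0.12, against 3.09% higher and 3.45% lower of all tested miRNAs. Of the 23, 18 were above background in all 11 tumours. Among the 113 miRNAs at that level, 9 were called higher and 15 lower, so the list did not stand out from them. Without APC tumour 1 there were 7 lower and 0 higher, against 5.59% and 4.32% of all, and the 4 added were miR-21, miR-106b, miR-221 and miR-222.

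The remaining members of that list were not called. MiR-21, the most abundant of them, stood at 74717, 136371, 124084, 128115 and 145496 CPM in APC tumours and at 100537 to 128523 CPM in AOM-DSS tumours. Apart from APC tumour 1 the APC levels lay in the upper part of the AOM-DSS range or above it. The log2 fold change was -0.13 ± 0.15 (adjusted p = 0.695), and -0.26 with an adjusted p of 0.0412 without APC tumour 1. The miR-17-92 cluster and its paralogues, a Myc-driven group, had 0 of 10 called with a median of 0.06, and the miR-183 cluster had 0 of 3 with a median of -0.18.

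MiR-205, a miRNA of squamous and basal epithelium, showed the largest fall among miRNAs above background in every tumour. Its levels were 8587, 17578, 14556, 17354 and 9445 CPM in APC tumours and 2615 to 9148 CPM, with a median of 4136, in AOM-DSS tumours. AOM-DSS tumour 3, the highest of its group, overlapped with APC tumour 1, and the other AOM-DSS tumours lay below all APC tumours. With 5 against 6 libraries its log2 fold change was -1.55 ± 0.31 (adjusted p = 0.00882). MiR-203, the other squamous marker, was not called, with a log2 fold change of 0.00 ± 0.26 and means of 3225 ± 1257 and 3228 ± 480 CPM (SD).

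Among miRNAs close to background, miR-499, miR-9 and miR-708 were called lower. MiR-9, best known from neurons, stood at 158, 344, 456, 279 and 356 CPM in APC tumours, 4 of them above background, and at 91.3 to 162 CPM, all at background, in AOM-DSS tumours. It was at least 1.43-fold lower in AOM-DSS tumours (adjusted p = 0.000786). MiR-124, the defining neuronal marker, was at background in all 11 tumours and was not called. MiR-708, from an intron of the teneurin gene Tenm4, had 233, 479, 590, 567 and 283 CPM against 160 to 226 CPM, with no overlap and a log2 fold change of -1.26 ± 0.23 (adjusted p = 0.00315). MiR-499, encoded within the myosin gene Myh7b, ran from 87.5 to 493 CPM in APC tumours and was at background in all AOM-DSS tumours. No fold bound above 1 could be given for it (adjusted p = 0.0299). The call of miR-499 was lost without APC tumour 2 or 3, or without AOM-DSS tumour 4 or 5 (adjusted p up to 0.0856).

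Of 8 miRNAs of fibroblasts and mesenchyme, 4 were called lower in AOM-DSS tumours, miR-10b was called higher and 3 were not called, against 3.45% lower of all tested miRNAs. Of the 8, 6 were above background in all 11 tumours, and among the 113 miRNAs at that level 15 were called lower. Leaving out APC tumour 1 gave 3 lower and 1 higher, against 5.59% and 4.32% of all. The list had a median log2 change of -0.53 and summed levels of 32642 to 50472 CPM in APC tumours against 23946 to 33612 CPM. MiR-100 stood at 945, 896, 941, 1044 and 810 CPM in APC tumours and at 377 to 611 CPM, with a median of 548, in AOM-DSS tumours. No AOM-DSS tumour reached the APC range, and the log2 fold change was -0.82 ± 0.15 (adjusted p = 0.00317). MiR-199a-3p had 6236, 7354, 5474, 5755 and 6463 CPM against 3321 to 4864 CPM with a median of 3884, again with no overlap (-0.66 ± 0.13, adjusted p = 0.00471).

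The 5p arm of miR-199a, a miRNA of mesenchymal cells, was lower by a log2 change of -0.49 ± 0.15 (adjusted p = 0.0479), a call kept in only 2 of the 11 fits that left out a tumour (adjusted p up to 0.15). MiR-214, made from the same transcript, had a log2 fold change of -0.43 ± 0.19 and was not called. MiR-152 had one of -0.08 ± 0.14. MiR-125b-5p, abundant in stroma, stood at 30370, 29443, 17068, 19097 and 24738 CPM in APC tumours and at 12850 to 20713 CPM in AOM-DSS tumours, with a median of 15634. The groups overlapped, and the log2 fold change of -0.60 ± 0.16 (adjusted p = 0.0304) was -0.50 with an adjusted p of 0.0695 without APC tumour 1. Its call was kept in 6 of the 11 fits.

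Clusters of miRNA genes on the genome moved in part together. On chromosome 17, miR-99b, let-7e and miR-125a-5p, which are cut from a common transcript, were all lower, while the minor arm miR-125a-3p was not called at 0.20. Let-7e had 3022, 3922, 3260, 3465 and 4061 CPM in APC tumours and 2105 to 2591 CPM in AOM-DSS tumours, with a median of 2245 and no overlap. Its log2 fold change was -0.62 ± 0.12 (adjusted p = 0.00574), and it was the only called member of 9 in the let-7 and miR-98 family. Without APC tumour 1, 3 of the family were called lower, against 5.59% of all. MiR-125a-5p was lower by a log2 change of -0.55 ± 0.12 (adjusted p = 0.00928).

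MiR-99b had 1225, 2778, 2670, 2848 and 2885 CPM against 1542 to 1743 CPM with a median of 1633. APC tumour 1 lay below every AOM-DSS tumour and the other 4 above all of them. Its log2 fold change of -0.61 ± 0.18 (adjusted p = 0.045) became -0.78 with an adjusted p of 5.02e-06 without APC tumour 1, and the call was lost in each of the 10 fits that left out another tumour. MiR-99a, of the same seed family, had a log2 fold change of -0.57 ± 0.18 and was not called (adjusted p = 0.0624).

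MiR-30d behaved in the same way as miR-99b in APC tumour 1. Its levels were 1995, 3747, 3481, 3838 and 3139 CPM in APC tumours and 1866 to 2094 CPM, with a median of 1999, in AOM-DSS tumours. APC tumour 1 fell within the narrow AOM-DSS range and the other APC tumours lay well above it, with a log2 fold change of -0.70 ± 0.15 (adjusted p = 0.00735). Its relative miR-30b had 4282, 18839, 21604, 23819 and 17733 CPM against 9822 to 12934 CPM, and was not called with all libraries (-0.62 ± 0.30, adjusted p = 0.317). Without APC tumour 1 its log2 fold change was -0.87, with an adjusted p of 2.46e-06.

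Among miRNAs of the Hox clusters, which repress Hox messengers along the body axis, miR-196a and miR-10b were called higher and miR-196b lower. MiR-196a, encoded in the Hoxb and Hoxc clusters, had 916, 603, 623, 737 and 595 CPM in APC tumours and 941 to 1267 CPM, with a median of 1125, in AOM-DSS tumours. All AOM-DSS tumours lay above all APC tumours, APC tumour 1 being nearest, and the log2 fold change was 0.68 ± 0.16 (adjusted p = 0.01). MiR-196b, encoded in the Hoxa cluster, had 4206, 4562, 5460, 6504 and 7863 CPM against 3051 to 3772 CPM with a median of 3136. Its groups did not overlap in the opposite direction, with a log2 fold change of -0.79 ± 0.15 (adjusted p = 0.00471). The probes differ in target by the single base A12C, and how far they cross-bind was not tested.

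MiR-10b, from the Hoxd cluster, had 257, 285, 194, 210 and 210 CPM in APC tumours, 1 of them above background, and 317 to 482 CPM, all above background, in AOM-DSS tumours. The groups did not overlap and the log2 fold change was 0.76 ± 0.18 (adjusted p = 0.0118). Its call was lost without AOM-DSS tumour 4 or 5 (adjusted p = 0.0545 and 0.0547). It was also lost with total count scaling (adjusted p = 0.132) and in the model over the 4 groups with normal mucosa (adjusted p = 0.433). MiR-10a, from the Hoxb cluster beside miR-196a, was not called at 0.73 ± 0.36, with AOM-DSS tumour 1 at 2465 CPM against 744 to 1118 CPM in the other AOM-DSS tumours.

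The Dlk1-Dio3 imprinted cluster on chromosome 12, which is expressed from the maternal allele in embryo, stroma and brain, had 5 higher and 0 lower of 57 tested members, against 3.09% and 3.45% of all tested miRNAs, with a median log2 change of 0.18 against 0.05 over all. Scaled to the 4 mRNA probes it had 0 higher and 3 lower, miR-134, miR-323-3p and miR-337-5p, against 0.363% and 10.5% of all under that scaling. Its levels were low, and 37 of the 57 were at background in all 11 tumours. MiR-136 was the called member that exceeded background throughout: 362, 289, 395, 365 and 425 CPM in APC tumours against 496 to 770 CPM, with a median of 629, in AOM-DSS tumours. Its groups did not overlap, and its log2 fold change was 0.78 ± 0.17 (adjusted p = 0.00693). MiR-376b was above background in 3 AOM-DSS tumours and in 0 APC tumours, miR-434-5p in 1 and 0, and miR-376c and miR-379 in none, so no fold is given for them. The call of miR-379 was lost without APC tumour 4, or without AOM-DSS tumour 2, 3 or 6.

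**Figure D3:**
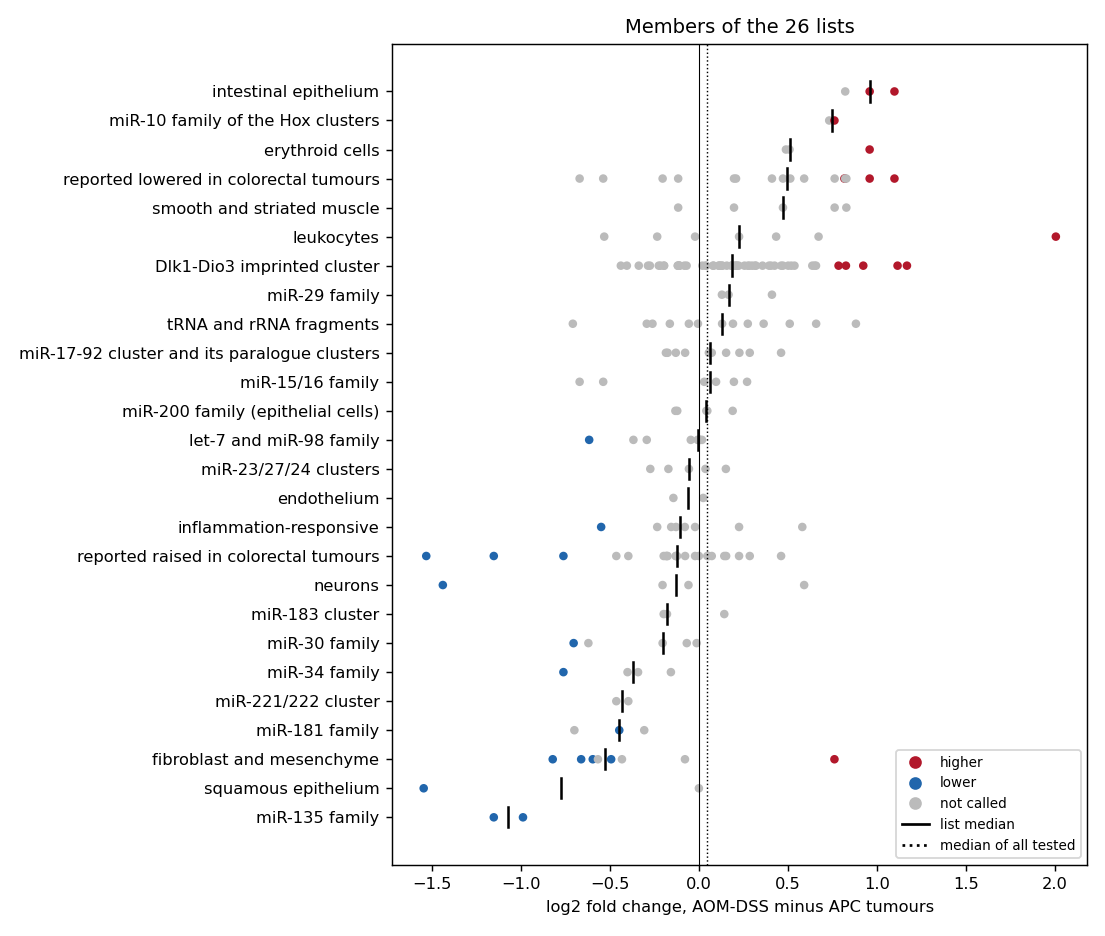
Log2 fold change of AOM-DSS minus APC tumours (horizontal axis) for each tested member of 26 miRNA lists (rows), with list medians as bars and the median of all tested miRNAs as a dotted line. The intestinal epithelium list lies at the top with a median of 0.96 and the miR-135 family at the bottom with -1.07; lists share members.

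Further calls were higher for miR-466g (0.79 ± 0.19) and miR-669f (at least 1.03-fold), which belong to a cluster in an intron of Sfmbt2, for miR-743a, at background in all but 1 tumour, and for miR-1224 and miR-2132. They were lower for miR-140 (-0.56 ± 0.16), known from cartilage, and for miR-181a (-0.45 ± 0.12), known from lymphocyte development. MiR-181a had 2573, 3663, 3092, 3112 and 2875 CPM in APC tumours and 2040 to 2397 CPM in AOM-DSS tumours, without overlap (adjusted p = 0.0344). Its call was kept in 4 of the 11 fits that left out a tumour, that of miR-140 in 2, of miR-743a in 4 and of miR-2132 in 5. The call of miR-1224 was lost without APC tumour 4 or AOM-DSS tumour 3 or 5, and that of miR-466g without AOM-DSS tumour 3 or 5. By contrast, 20 of the 36 calls, 8 higher and 12 lower, were kept in all 11.

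A further 22 miRNAs were called when APC tumour 1 was left out, 9 higher and 13 lower. MiR-195, of the miR-15 family that restrains the cell cycle, had 461, 1660, 1451, 1544 and 1450 CPM in APC tumours and 679 to 969 CPM in AOM-DSS tumours, so that APC tumour 1 lay below the AOM-DSS range and the other 4 above it. Its log2 fold change went from -0.67 (adjusted p = 0.1) to -0.89 (adjusted p = 9.04e-06), and that of its cluster neighbour miR-497 from -0.54 (adjusted p = 0.226) to -0.74 (adjusted p = 0.00154). Let-7c had 9853, 27605, 33322, 34126 and 34837 CPM against 18019 to 25725 CPM, and went from -0.29 (adjusted p = 0.585) to -0.51 (adjusted p = 0.00104). MiR-221 and miR-222, a clustered pair reported as raised in many tumours, went from -0.46 and -0.40 (adjusted p = 0.4 and 0.465) to -0.67 and -0.61 (adjusted p = 0.0123 and 0.0246). Of the leukocyte markers, miR-142-5p was then called higher at 0.50 and miR-342-3p lower at -0.56.

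Markers of smooth and striated muscle (miR-1, miR-133a, miR-133b, miR-143 and miR-145) were not called, with 0 of 5 and a median of 0.47. MiR-143 stood at 4539, 11576, 8807, 8875 and 8400 CPM in APC tumours and at 6265 to 21172 CPM in AOM-DSS tumours (0.83 ± 0.28, adjusted p = 0.112), and miR-145 at 8056, 16449, 14656, 15608 and 15463 CPM against 10829 to 33188 CPM (0.76 ± 0.25, adjusted p = 0.0943). The groups overlapped for both, with APC tumour 1 lowest. Both endothelial probes were uncalled too, with a median of -0.06.

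The probe for miR-720, whose sequence is that of a tRNA fragment, held 13.3% ± 5.44 of all mouse miRNA counts in APC tumours and 22.2% ± 3.12 in AOM-DSS tumours (SD), a difference of 8.89 percentage points (exact two-sided permutation test, p = 0.0173, adjusted p = 0.0519 over 6 measures). Among the 4 mRNA probes on the cartridge, Actb was higher in AOM-DSS tumours by 0.77 on the log2 scale (exact permutation p = 0.00866, adjusted p = 0.0519) and Rpl19 by 0.43 (exact permutation p = 0.0303, adjusted p = 0.0606). Scaling to these 4 probes moved the median of all tested miRNAs to -0.40 and gave 2 higher (0.363%) and 58 lower (10.5%) calls. No called miRNA changed sign under that scaling. All 19 lower calls passed under it, and of the higher calls miR-150 and miR-192 did. Under it the medians of the Dlk1-Dio3, leukocyte and muscle lists turned negative, at -0.27, -0.16 and -0.01, while that of intestinal epithelium stayed at 0.53.

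The same contrast of models in normal mucosa gave values beside which the tumour differences can be read. There too all APC libraries ran on cartridge 1, but all AOM-DSS libraries ran on cartridge 2. The AOM-DSS tumours of cartridge 3 thus have no counterpart in the normal contrast. In normal mucosa 19 of 563 miRNAs (3.37%) were called, and 88 passed at an unadjusted p under 0.05. AOM-DSS normal 7 held only 47235 mouse miRNA counts, against 258878 to 329346 in the other AOM-DSS normals, and without it 16 miRNAs were called. Of the 36 miRNAs called in tumours, 17 had the same sign in normal mucosa and 4 were called there. The Pearson correlation between the tumour and the normal difference was -0.05 over all 551 miRNAs, as a description across miRNAs that are not independent replicates.

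MiR-1224, miR-2132 and miR-376b were higher in AOM-DSS libraries of both tissues. MiR-1224 had a log2 fold change of 1.95 ± 0.16 in normal mucosa and of 0.78 ± 0.19 in tumours, and miR-2132 of 1.37 ± 0.24 and 0.68 ± 0.18. MiR-376b had 0.77 ± 0.21 in normal mucosa, where its level against background is not given here. No tumour fold is set beside that value, since most tumours were at background for miR-376b. MiR-378 went the other way, at -0.65 ± 0.16 (adjusted p = 0.00994) in normal mucosa and 0.82 in tumours.

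The tumour difference itself differed from the normal difference for 38 of 563 miRNAs (6.75%) and for 19 of the 36 called in tumours. The 36 were chosen by their tumour difference, which is part of this test, so their share cannot be set against that of all. Without AOM-DSS normal 7 it differed for 43 miRNAs. MiR-192 had -0.22 ± 0.14 in normal mucosa, and the tumour difference exceeded it by 1.33 (adjusted p = 4.9e-05). MiR-194 had -0.36 ± 0.13, with a gap of 1.33 (adjusted p = 1.25e-05). MiR-9, miR-31, miR-135a and miR-135b had normal differences of 0.29, -0.10, 0.23 and -0.14, and gaps of -1.73, -1.43, -1.21 and -0.9996. The size of the miR-9 gap is not a measured fold, since miR-9 was at background in every AOM-DSS tumour. For these 6 the difference between the models was thus larger in tumours than in normal mucosa by a direct test. That test also carries any step between cartridges 2 and 3, since only tumours ran on cartridge 3. For miR-150 the gap of 1.16 did not pass (adjusted p = 0.277), nor did that of -1.12 for miR-205 (adjusted p = 0.13).

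**Figure D4:**
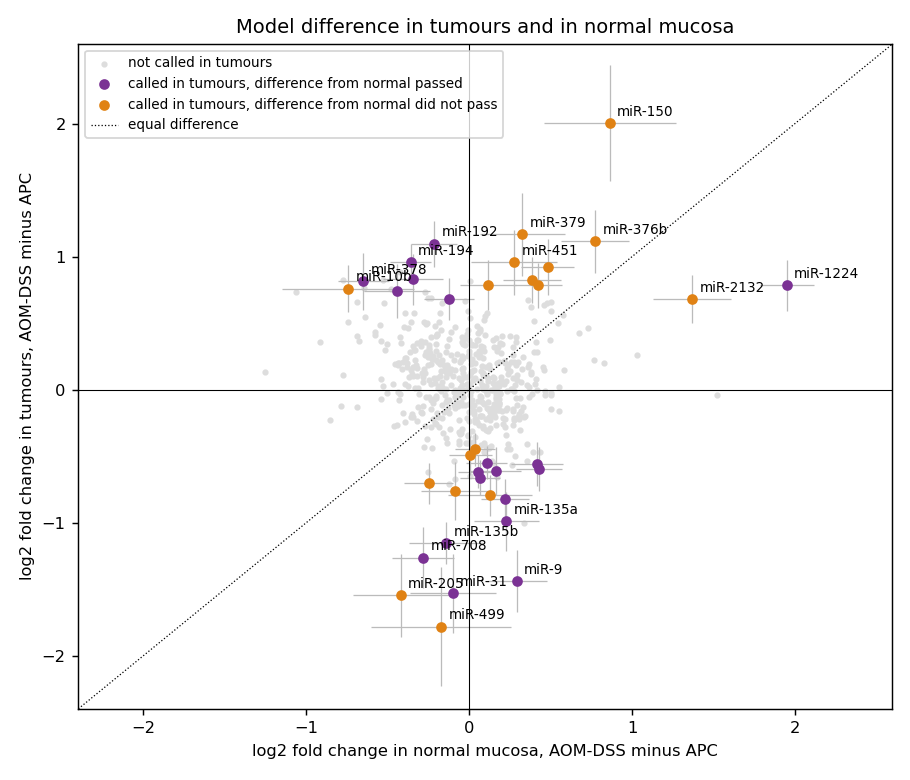
Log2 fold change of AOM-DSS minus APC in tumours (vertical axis) against the same in normal mucosa (horizontal axis), with standard errors for the 36 miRNAs called in tumours; the dotted line marks equal differences. Purple points passed the test of the gap between the tissues; miR-1224 and miR-2132 lie to the right, while most lower calls lie near 0 in normal mucosa.

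Within the AOM-DSS tumours, cartridge 3 against cartridge 2 gave 0 of 551 calls (0%) in edgeR's quasi-likelihood test, with 46 miRNAs at an unadjusted p under 0.05 and 2 libraries on cartridge 2. All 36 miRNAs kept their sign when APC tumours were set against the AOM-DSS tumours of cartridge 2 alone or of cartridge 3 alone. With cartridge 3 alone, 23 of the 36 were called. With the 2 libraries of cartridge 2 alone none was called, while 86 of 563 miRNAs passed at an unadjusted p under 0.05. These contrasts reuse libraries by which the 36 were chosen, and they leave the step between cartridge 1 and the others untouched.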

How the data were processed

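Raw probe counts of 24 nCounter libraries were deposited by the authors, covering 33 viral and 4 mRNA probes beside the mouse miRNAs; per the file headers, they were run on 3 cartridges. The authors' second deposited table gives the signal after multiplying each library's counts by a factor whose basis, like the software, is not stated in the labels. Undoing that factor returned whole counts for 100% of 14376 values within 0.01, and all 24 columns then matched a raw column, from which the library numbers come.

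Counts were tested in R 4.3.3 with edgeR 4.0.16 (filterByExpr, min.count 10, min.total.count 15; TMM; robust quasi-likelihood fit) on the 11 tumours alone; adjusted p-values are Benjamini-Hochberg values over every tested miRNA, called under 0.05. Normal mucosa entered only a model over the 4 groups. The standard error is the absolute log2 fold change over the square root of F. Replicates of a group differed beyond counting noise (lowest chi-square per degree of freedom 3.85). A miRNA at background in every library of a group has a bound, the brighter group's mean log2 CPM against the dim values raised to background. Single values were tested by exact permutation of 462 arrangements (scipy 1.17.1). Alternatives used DESeq2 1.42.0 and limma 3.58.1, the latter on log2(signal + 1).

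Members and the 26 lists were chosen with earlier results of these data known. Named were miR-135a, miR-135b, miR-31 and miR-21, the 12 largest called changes each way whose median count in the higher group exceeded background, up to 4 members per list by p, and miR-720 and the mRNA probes; other called miRNAs, and miR-30b, were named after their values were seen. Of the 551 tested probes 436 matched a RefSeq miRNA gene, and 21 of 24 mapped for printing matched a mature sequence. MiR-215 and miR-199b had no probe of their own.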

Additional observations from a re-analysis of the deposited data

Results flagged for a closer look

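In groups of 5 or 6 tumours, 26 of 180 tests for a value far from the rest of its group were positive, where chance gives about 1 in 20. APC tumour 1 accounted for 14 of them. Its total of 134680 mouse miRNA counts lay below the 238359 to 262394 of the other APC tumours. It was low, in CPM, for let-7a (13622, others from 27151), let-7c (9853, from 27605), miR-126-5p (834, from 1410), miR-144 (123, from 275), miR-145 (8056, from 14656), miR-195 (461, from 1450), miR-203 (1050, from 3305), miR-30e (385, from 781), miR-466g (163, from 322) and miR-99b (1225, from 2670). It was high for miR-106a+miR-17 (8622, others to 8039), miR-132 (1715, to 1501) and the Gapdh mRNA probe (3115, to 1742).

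APC tumour 5 was high for the epithelial miR-192 (11846, others to 7368) and miR-194 (12915, to 8966) and for the leukocyte miRNAs miR-142-3p (14594, to 10524) and miR-146a (6463, to 5417), and low for miR-181c (244, from 411). APC tumour 2 was high for miR-342-3p (1225, to 894). AOM-DSS tumour 1 was high for miR-10a (2465, to 1118) and miR-486 (217, to 130), AOM-DSS tumour 2 for miR-140 (2075, to 1361), and AOM-DSS tumour 3 for miR-18a (702, to 478) and miR-205 (9148, to 4969). AOM-DSS tumour 6 was low for miR-181b+miR-181d (270, from 348).

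For 30 named miRNAs the log2 difference between the models in tumours differed from that in normal mucosa in edgeR's test of the interaction over all 24 libraries. Of all tested miRNAs 38 of 563 (6.75%) did so. Many of the named miRNAs were chosen by their tumour difference, which is part of this test. The values below are the tumour difference minus the normal difference, and only the tumours include libraries of cartridge 3. Among epithelial and metabolic miRNAs it was positive for miR-192 (1.33), miR-194 (1.33), miR-375 (1.63) and miR-378 (1.49). Smooth and striated muscle miRNAs were positive too, for miR-143 (1.36), miR-145 (1.41) and miR-1 (0.88). Of these, miR-375, miR-143, miR-145 and miR-1 were called in neither direction in tumours alone. Mesenchymal and cluster members were negative, for miR-100 (-1.03), miR-125b-5p (-0.998), miR-199a-3p (-0.71), miR-99b (-0.77), let-7e (-0.66) and miR-125a-5p (-0.64). So were miR-9 (-1.73), miR-31 (-1.43), miR-135a (-1.21), miR-135b (-0.9996), miR-708 (-0.99), miR-140 (-0.96), miR-497 (-0.89) and miR-126-3p (-0.63). The miR-9 value rests on AOM-DSS tumour counts at background, and miR-497 and miR-126-3p were not called in tumours alone. MiR-1224 was negative (-1.15), with a larger rise in normal mucosa. The rest were positive, for miR-18a (0.85), miR-1937c (1.36), miR-196a (0.83), miR-29c (0.62), miR-486 (1.04), miR-669f (1.19), miR-720 (1.33) and miR-743a (1.19). Among them miR-18a, miR-1937c, miR-29c, miR-486 and miR-720 were not called in tumours alone.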

How the results depend on the processing

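Across the 921 values fitted for the 36 called miRNAs under the alternatives, 0 changed sign. The 36 were chosen by their difference in libraries that the alternatives reuse, so a change of sign was unlikely beforehand. Of the 36 calls, 25 were kept with total count scaling and 21 with scaling to the 4 mRNA probes. With the replicate number as a block 22 were kept. Relative to the 17 higher and 19 lower calls, scaling by total count gave 7 higher, and scaling to the 4 mRNA probes gave 2 higher and 58 lower, so that the share of higher among all calls went from 47.2% to 22.6% and 3.33%. Total count scaling moved the median of all tested miRNAs to -0.12. A model over the 4 groups gave 27 higher. With the AOM-DSS tumours of cartridge 2 alone there were 0 higher and 0 lower, with fewer samples. Leaving out 1 tumour gave 10 to 24 higher and 12 to 31 lower; the most lower calls came without APC tumour 1 and the fewest without APC tumour 2, and the fewest higher calls without AOM-DSS tumour 3 (10), APC tumour 4 (11) or AOM-DSS tumour 5 (11). The cause of these changes was not tested. Leaving out 1 library gave 8 to 21 calls in normal mucosa, 30 to 57 for the gap between tissues and 0 to 7 between cartridges 3 and 2, the 7 without AOM-DSS tumour 2. For the mRNA probes and shares, leaving out 1 tumour gave differences of 0.33 to 0.51 for Rpl19 and 0.60 to 0.91 for Actb. It gave 7.67 to 10.9 percentage points for miR-720 and 1.02 to 1.65 for miR-143 plus miR-145. These 4 measures each passed after adjustment without at least 1 tumour, but none did with all 11. Rpl19 had 0.26 with total count scaling and 0.60 with cartridge 2 alone, and Actb had 0.98 with cartridge 2 alone. The miR-143 plus miR-145 difference was 0.05 points with cartridge 2 alone and 1.89 with cartridge 3 alone. With the label's replicate number as a block there were 15 higher and 11 lower calls; same-numbered tumours did not deviate together (correlations -0.13 to 0.01) and none matched its own number best, so the numbers do not pair them. Among single named miRNAs and list medians, 2794 values kept their side of the threshold or their size, 206 lost a call, 76 gained a call and 53 list medians moved by more than the spread. Signal near background limits the low miRNAs, since 285 of 551 never exceeded it in a tumour.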
